A study of Mus musculus with 12 samples.

Results

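The regions described here are those of open chromatin that separate Ly6C-low recruited liver macrophages of mice on a NASH diet (Ly6CLo-RM) from healthy Kupffer cells of mice on a control diet (KC-H). NASH, nonalcoholic steatohepatitis, is a fatty and inflamed state of the liver. Ly6CLo-RM were sorted as Cd11b-Hi Ly6CLo recruited liver macrophages, and KC-H as F4/80-Hi Tim4-Pos Kupffer cells. Both came from C57BL/6J mice, and the livers of both were digested with flavopiridol present, a blocker of transcription. ATAC-seq uses a transposase that cuts accessible DNA and leaves sequencing adapters there. It was done on 2 libraries of each group, 4 of the 12 libraries of the series. For the mice, age, sex, time on the diet and any pooling were not given in the sources used here. Each group has 1 deposited peak list made from both libraries, with 54621 peaks for Ly6CLo-RM and 63501 for KC-H.

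A peak counted as list-specific when the other list had no centre of a peak within 1000 bp of its own, and every other peak is called shared. This rule gave 12387 Ly6CLo-RM-specific peaks (22.7% of the list, 95% Wilson interval 22.3% to 23.0%) and 17299 KC-H-specific peaks (27.2%, 26.9% to 27.6%). Together these are 29686 of the 334073 peaks of all 6 lists. With KC-H cut to its 54621 best-scored peaks, so that the lists were of equal length, there were 14834 Ly6CLo-RM-specific peaks (27.2%) and 12926 KC-H-specific peaks (23.7%). The order of the counts therefore turned with the length of the lists, and neither population can be said to have more regions of its own. Without a value per library there was no replicate error and no test, and all intervals cover counting error only. Diet and cell type differ together between these groups and cannot be told apart from these lists alone. In sorted bulk samples, opening in a part of the cells and weaker opening in all cells cannot be told apart either.

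Kupffer cells are the resident macrophages of the liver sinusoids, seeded before birth, where they clear microbes, dying cells and aged red blood cells and recycle iron. Their state is known to depend on the factors LXRα, encoded by Nr1h3, and SMAD4, and on signals from endothelial, stellate and parenchymal cells. In a diseased liver, blood monocytes enter and become macrophages, first with high and later with low surface Ly6C. Open distal regions carry the binding of lineage factors such as PU.1 and of partners such as AP-1, RUNX and nuclear receptors, so a set of open regions reflects the state of a cell.

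The most direct view of the contrast is at gene starts that were open in 1 list alone. Promoter windows of 300 bases (250 before and 50 after a RefSeq transcription start, build GRCm38.p6) are printed on the gene's strand for the 4 genes per side, among the gene lists described below, with the best-scored list-specific peak in the window. Capitals mark matches to the searched motifs on either strand. The windows with a Ly6CLo-RM-specific peak belong to Runx3, a transcription factor (chr4:135120395-135120694, plus strand, capitals RUNX), Emp1, a membrane protein (chr6:135362681-135362980, plus strand, capitals AP-1 and SMAD, of which a pair overlaps), H2-DMb2, a chain of the peptide loader of MHC class II (chr17:34144999-34145298, plus strand, no match), and Cx3cr1, the fractalkine receptor (chr9:120068247-120068546, minus strand, no match). The windows with a KC-H-specific peak belong to Cd5l, a secreted scavenger protein (chr3:87357631-87357930, plus strand, no match), Hpgd, an enzyme that degrades prostaglandins (chr8:56294302-56294601, plus strand, no match), Fcna, a lectin of the complement system (chr2:25627925-25628224, minus strand, no match), and Timd4, the gene of Tim4 itself (chr11:46810549-46810848, plus strand, capitals SMAD).
Runx3: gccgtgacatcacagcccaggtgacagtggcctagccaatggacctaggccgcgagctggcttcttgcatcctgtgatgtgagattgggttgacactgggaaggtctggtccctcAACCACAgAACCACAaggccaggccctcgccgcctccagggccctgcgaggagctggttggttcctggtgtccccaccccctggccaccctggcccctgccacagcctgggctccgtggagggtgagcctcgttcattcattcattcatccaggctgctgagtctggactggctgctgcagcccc
Emp1: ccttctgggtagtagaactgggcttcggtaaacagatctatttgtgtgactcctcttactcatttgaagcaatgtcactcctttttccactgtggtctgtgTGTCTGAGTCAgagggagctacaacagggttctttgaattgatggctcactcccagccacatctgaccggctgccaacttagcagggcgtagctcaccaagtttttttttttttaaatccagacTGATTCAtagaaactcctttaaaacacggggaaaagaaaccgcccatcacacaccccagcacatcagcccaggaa
H2-DMb2: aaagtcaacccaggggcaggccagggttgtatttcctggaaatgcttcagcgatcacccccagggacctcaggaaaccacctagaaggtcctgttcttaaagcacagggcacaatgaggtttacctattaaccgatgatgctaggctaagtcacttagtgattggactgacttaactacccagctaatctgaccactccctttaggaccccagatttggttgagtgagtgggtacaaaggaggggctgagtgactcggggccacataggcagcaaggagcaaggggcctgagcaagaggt
Cx3cr1: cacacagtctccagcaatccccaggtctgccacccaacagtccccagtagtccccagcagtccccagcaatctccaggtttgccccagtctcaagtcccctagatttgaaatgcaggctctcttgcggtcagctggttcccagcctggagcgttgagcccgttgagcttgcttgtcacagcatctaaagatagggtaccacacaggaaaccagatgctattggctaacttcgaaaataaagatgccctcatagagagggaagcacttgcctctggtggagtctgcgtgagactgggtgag
Cd5l: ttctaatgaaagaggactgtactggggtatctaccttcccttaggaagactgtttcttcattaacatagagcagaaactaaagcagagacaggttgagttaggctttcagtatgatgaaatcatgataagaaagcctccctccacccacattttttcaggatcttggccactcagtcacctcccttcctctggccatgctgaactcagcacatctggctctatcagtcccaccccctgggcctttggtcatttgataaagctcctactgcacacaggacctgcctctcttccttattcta
Hpgd: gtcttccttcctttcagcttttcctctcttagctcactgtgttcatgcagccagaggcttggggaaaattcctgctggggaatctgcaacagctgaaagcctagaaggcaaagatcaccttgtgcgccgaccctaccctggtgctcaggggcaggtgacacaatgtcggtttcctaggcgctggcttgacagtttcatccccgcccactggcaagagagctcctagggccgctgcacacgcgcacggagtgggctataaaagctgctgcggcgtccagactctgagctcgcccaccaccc
Fcna: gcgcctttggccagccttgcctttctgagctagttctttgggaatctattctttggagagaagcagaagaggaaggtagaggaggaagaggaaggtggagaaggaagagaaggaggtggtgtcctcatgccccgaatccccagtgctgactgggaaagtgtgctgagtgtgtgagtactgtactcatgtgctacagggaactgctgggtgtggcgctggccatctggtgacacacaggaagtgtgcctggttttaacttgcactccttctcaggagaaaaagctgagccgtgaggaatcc
Timd4: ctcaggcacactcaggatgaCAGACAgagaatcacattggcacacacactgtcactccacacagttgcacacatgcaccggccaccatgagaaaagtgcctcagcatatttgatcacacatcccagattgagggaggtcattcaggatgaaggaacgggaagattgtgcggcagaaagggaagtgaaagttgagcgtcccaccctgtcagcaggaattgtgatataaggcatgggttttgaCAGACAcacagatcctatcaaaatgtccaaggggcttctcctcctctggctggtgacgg

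Peaks in the printed windows were picked by score, so their high scores follow from that choice. Among the other listed genes with such a peak, scores went down to 22 at Kdr in Ly6CLo-RM and 27 at Batf in KC-H. The authors' score, a whole number per peak, was used only to rank peaks within a list. In Ly6CLo-RM the Runx3 peak had a score of 117, the Emp1 peak 93, the H2-DMb2 peak 81 and the Cx3cr1 peak 79, where the median of all peaks was 40. In KC-H the Cd5l peak had a score of 129, the Hpgd peak 111, the Fcna peak 99 and the Timd4 peak 95, where the median was 48. The nearest KC-H centre was 30162 bp from the Runx3 peak, 5086 bp from that of Cx3cr1, 1818 bp from that of Emp1 and 1469 bp from that of H2-DMb2. The nearest Ly6CLo-RM centre was 18444 bp from the Cd5l peak, 14859 bp from that of Timd4, 6034 bp from that of Fcna and 2002 bp from that of Hpgd. With a limit of 2000 bp the Emp1 and H2-DMb2 peaks would count as shared. The Runx3, Emp1 and Cx3cr1 peaks were found in all 4 other lists of the series, all of NASH-diet mice, and the H2-DMb2 peak in none of them. The Cd5l and Fcna peaks were found in the lists of Tim4-positive (KC-N) and Tim4-negative (KN-RM) F4/80-high Kupffer cells of NASH mice and not in those of Ly6C-high recruited macrophages (Ly6CHi-RM) or blood monocytes with high Ly6C (Blood-Ly6CHi-NASH). The Timd4 peak was found in KC-N alone, and the Hpgd peak in KC-N and blood monocytes.

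Of 17492 genes with a start in the RefSeq promoter table, 8733 had a peak centre within 1 kb of a start in both lists. A start peak was present in Ly6CLo-RM alone at 350 genes (2.00%) and in KC-H alone at 617 (3.53%). At equal length the counts were 461 (2.64%) and 492 (2.81%). Of 20 genes of Kupffer cell identity with a start in the table, 0 had a start peak in Ly6CLo-RM alone and 13 in KC-H alone. Among the 13 were Timd4, Clec4f, Cd5l, Marco and Vsig4. Clec4f, Marco and Vsig4 had a start peak in none of the 4 NASH lists set beside them, and Timd4 had one in KC-N. On the recruited side, Bcl11a and Flt3, genes of dendritic cell and progenitor programmes, had a start peak in Ly6CLo-RM, Ly6CHi-RM and blood monocytes and none in KC-H. KC-N also had one at Flt3. Spp1, which encodes osteopontin, and Vegfa, a growth factor of blood vessels, also had a start peak in Ly6CLo-RM and none in KC-H, and both had one in all 4 other lists, KC-N and KN-RM included.

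List-specific peaks were mostly weak and far from starts. Each list was divided by score into 10 classes of equal size. In the best class 1.37% of Ly6CLo-RM peaks and 2.14% of KC-H peaks were list-specific, and in the lowest class 49.2% and 50.9%. The median score was 27 for specific and 46 for shared peaks of Ly6CLo-RM, and 35 and 57 for those of KC-H. Within 1 kb of a start lay 5.10% of Ly6CLo-RM-specific peaks (4.73% to 5.50%) and 7.18% of KC-H-specific peaks (6.80% to 7.57%). The corresponding shares of shared peaks were 37.0% in Ly6CLo-RM and 38.1% in KC-H. Specific peaks had a median distance to a start of 20.1 kb in Ly6CLo-RM and 20.2 kb in KC-H. Their centres lay inside a protein-coding gene in 53.7% and 58.9% of cases, and exons and introns were not used here. Peaks up to 200 bp on the shared side of the 1000 bp limit numbered 432 in Ly6CLo-RM and 962 in KC-H, with median scores of 27 and 33. Those up to 200 bp on the specific side numbered 388 and 767, with median scores of 27 and 34.

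**Figure D1:**
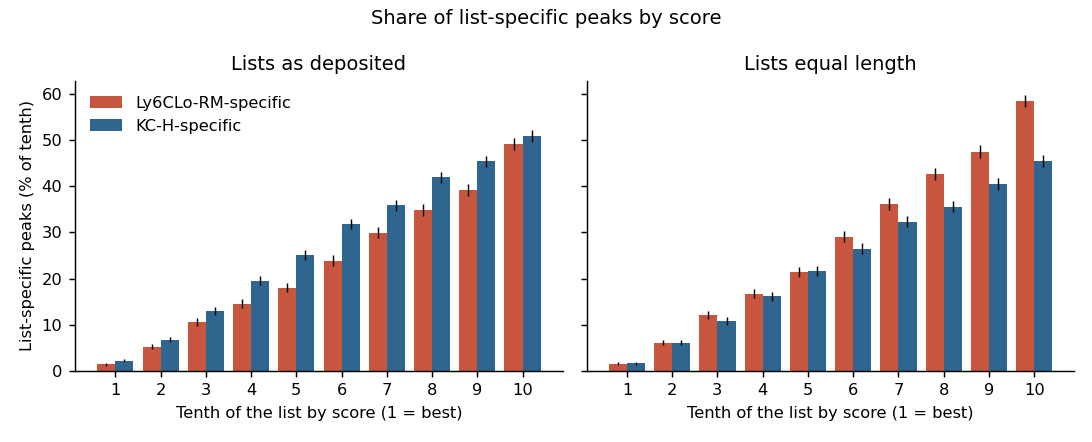
Share of list-specific peaks (per cent) in each of 10 equal classes of a list by score, with 1 the best. The lists are shown as deposited and at equal length. Coloured bars are Ly6CLo-RM and KC-H, and thin lines on them are 95% Wilson intervals. In the lists as deposited the share climbs in both, to 49.2% of the lowest class in Ly6CLo-RM and 50.9% in KC-H.

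The further lists of the series show which populations hold the regions of each side. Of Ly6CLo-RM-specific peaks, 69.9% (69.1% to 70.7%) were found in Ly6CHi-RM, 65.1% in blood monocytes, 21.1% in KC-N and 10.5% in KN-RM. Of KC-H-specific peaks, 49.1% (48.4% to 49.8%) were found in KC-N, 21.1% in KN-RM, 26.2% in Ly6CHi-RM and 35.7% in blood monocytes. Peaks shared by Ly6CLo-RM and KC-H were found in these lists in 77.8% to 96.7% of cases, lowest in KN-RM. KN-RM had 34293 peaks, the fewest of the 4 lists, and the blood list 69616, the most. The largest class of Ly6CLo-RM-specific peaks was found in Ly6CHi-RM and blood monocytes and in neither F4/80-high list, with 5214 peaks (42.1%). Another 2694 (21.7%) were in no other list, and 846 (6.83%) were in all 4. The largest class of KC-H-specific peaks was in no other list, with 5700 peaks (32.9%), followed by 2917 (16.9%) in KC-N alone and 1763 (10.2%) in KC-N and KN-RM alone.

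**Figure D2:**
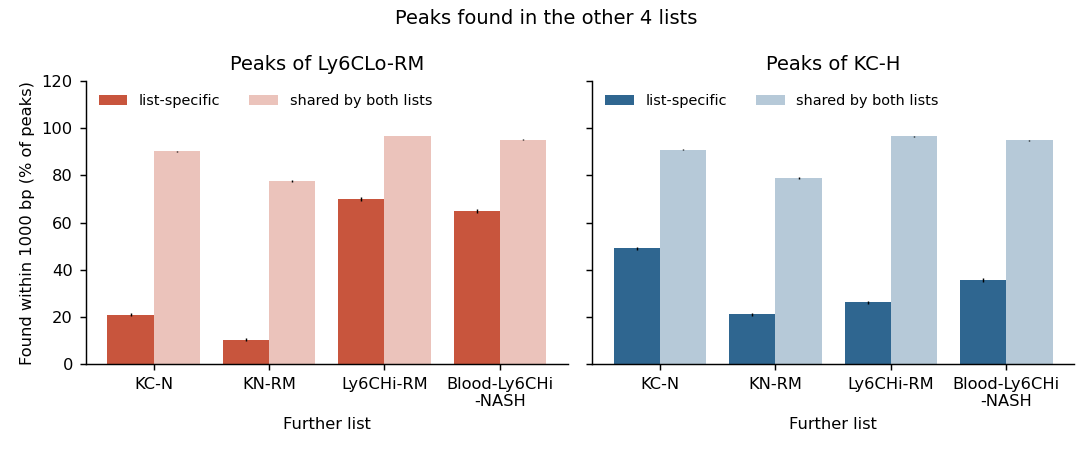
Per cent of list-specific and of shared peaks of Ly6CLo-RM (left) and KC-H (right) with a peak centre of a further list within 1000 bp, for the 4 other lists; bars carry 95% Wilson intervals. Specific peaks of Ly6CLo-RM are found most in Ly6CHi-RM (69.9%), and those of KC-H most in KC-N (49.1%).

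Most shares of peaks found elsewhere were lower in the lowest score class than in the best, for specific and shared peaks alike. KC-H-specific peaks found in Ly6CHi-RM and blood monocytes were the exception. Of the 75 specific peaks in the best score class of Ly6CLo-RM, 100% were in Ly6CHi-RM and 78.7% (68.1% to 86.4%) in KC-N, and in the lowest class 59.3% and 8.85%. Peaks of Ly6CLo-RM shared with KC-H went the same way, with 100% and 99.96% in the best class and 86.2% and 68.8% in the lowest. Of the 136 specific peaks in the best class of KC-H, 97.8% (93.7% to 99.2%) were in KC-N, 20.6% in Ly6CHi-RM and 16.2% in blood monocytes. In the lowest class of KC-H the shares were 22.4% in KC-N, 22.8% in Ly6CHi-RM and 34.3% in blood monocytes. Those in Ly6CHi-RM and blood monocytes were thus not lower than in the best class. Shared peaks of the lowest class of KC-H were found in KC-N in 64.0% of cases, in Ly6CHi-RM in 91.6% and in blood monocytes in 89.4%.

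The highest-scored specific peaks differed between the lists in where else they were found. That of Ly6CLo-RM lay 21.6 kb from Bhlhe40, a transcription repressor gene (chr6:108688441-108688641, score 182), followed by peaks in Ppfibp2 (167), near Alcam (159), in Mbp (155) and at the start of Dhrs9 (154). All 5 were found in all 4 other lists, KC-N and KN-RM included, unlike the largest class of Ly6CLo-RM-specific peaks. The highest of KC-H lay in Csrp1 (chr1:135746218-135746418, score 207), followed by peaks at the start of 1700003F12Rik (203), in Arl15 (193) and in Sema6d (192). The fifth lay over 100 kb from any protein-coding gene, on chromosome 5 (190). All 5 were found in KC-N, and of these only the peak at 1700003F12Rik was found in Ly6CHi-RM or blood monocytes.

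Peaks were assigned to the protein-coding gene that contains the centre, or else to the nearest within 100 kb. Of 14963 genes with a peak in either list, 3751 (25.1%) had more Ly6CLo-RM-specific than KC-H-specific peaks and 4945 (33.0%) had more KC-H-specific ones. At equal length the shares were 32.8% and 24.9%. The median difference over all genes was 0, and 42.0% of the specific peaks assigned to genes were of Ly6CLo-RM. At equal length this share was 53.9%, so counts of a gene list at equal length are to be read beside it. Counts of the lists as deposited are to be read beside the 42.0%, and numbers of genes beside the 25.1% and 33.0%. Over both lists all genes had a median of 5 peaks, and 36.4% had no specific peak. Genes of a list can have more peaks, with a median of 20.5 for early response genes, so ties may be fewer there. A count of peaks is a count of open regions and measures neither their strength nor transcription.

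Genes of Kupffer cell identity had 3 Ly6CLo-RM-specific and 178 KC-H-specific peaks, and all 24 had more on the KC-H side. Clec4f, a lectin used to mark Kupffer cells (chromosome 6, 83644542 to 83656116), had 0 peaks in Ly6CLo-RM and 18 in KC-H, and all 18 were KC-H-specific. Timd4, a receptor for phosphatidylserine on dying cells (chromosome 11, 46810786 to 46844333), had 1 and 17 peaks, and 16 of the 17 were KC-H-specific. Cd5l had 1 and 24 peaks, the scavenger receptor gene Marco 1 and 15, and the complement receptor gene Vsig4 1 and 5. The 24 genes held 65 Ly6CLo-RM peaks and 263 KC-H peaks in all. At equal length 6 and 128 list-specific peaks were counted, with 0 genes more on the Ly6CLo-RM side and 23 on the KC-H side.

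Kupffer cells of the NASH liver kept 81 of these 178 regions in KC-N (45.5%), near the 49.1% of all KC-H-specific peaks. The members differed. KC-N held 14 of the 22 KC-H-specific regions of Cd5l and 9 of the 18 of Clec4f, but 1 of the 16 of Timd4 and 2 of the 15 of Slc40a1. KC-N was sorted as Tim4-positive, and peaks at Timd4 do not measure the surface protein.

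Peaks at these markers lay on the side that the label of KC-H gives. The gene lists were chosen with earlier results of these data known, and Timd4 encodes the sort marker itself, so this is no independent check of the label. Markers of recruited cells had similar numbers of peaks: the integrin gene Itgam, which encodes CD11b, had 9 in Ly6CLo-RM and 7 in KC-H, Ccr2 2 and 3, Cx3cr1 6 and 6, and Ly6c2 4 and 3. At their starts, Cx3cr1 and Ly6c2 had a peak in Ly6CLo-RM and none in KC-H, Itgam had one in both and Ccr2 in neither. Adgre1, which encodes F4/80, had 5 and 8. Of 11 hepatocyte genes, 9 had no Ly6CLo-RM peak and 8 no KC-H peak. Neutrophil genes had 4 Ly6CLo-RM-specific and 5 KC-H-specific peaks, B cell genes 3 and 8, T and NK cell genes 12 and 5, and stellate cell genes 6 and 7. Housekeeping genes had 12 and 6, so that Ly6CLo-RM gave 66.7% (43.8% to 83.7%), beside 42.0% over all genes. Of T and NK cell genes Ly6CLo-RM gave 70.6% (46.9% to 86.7%), also above 42.0%. The intervals of neutrophil, B cell and stellate cell genes held 42.0%. At equal length the counts were 6 and 4 for neutrophil genes, 6 and 6 for B cell genes and 7 and 4 for stellate cell genes. T and NK cell genes then had 13 and 4, and housekeeping genes 14 and 3. For T and NK cell genes Ly6CLo-RM then gave 76.5% (52.7% to 90.4%), an interval that held the 53.9% over all genes. The part of these other cells in the sorts was not tested.

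Liver endothelial genes had 12 Ly6CLo-RM-specific and 35 KC-H-specific peaks, of 30 and 55 peaks in all. Most of those of KC-H lay at Stab2, a scavenger receptor gene also in the uptake list below, with 0 and 18, and at Cdh5, also in the identity list, with 0 and 8. Kdr, a receptor for vascular growth factor, had 5 and 0 specific peaks, and Bmp2, a bone morphogenetic protein, 0 and 3. A start peak was present in Ly6CLo-RM alone at Kdr and Ehd3 and in KC-H alone at none of the 6 genes with a start in the table. Of the 12 genes, 3 had no peak in Ly6CLo-RM and 4 none in KC-H. At equal length the specific peaks were 13 and 22, with 5 genes more on the Ly6CLo-RM side and 3 on the KC-H side. The part of endothelial cells in these results was not tested.

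**Figure D3:**
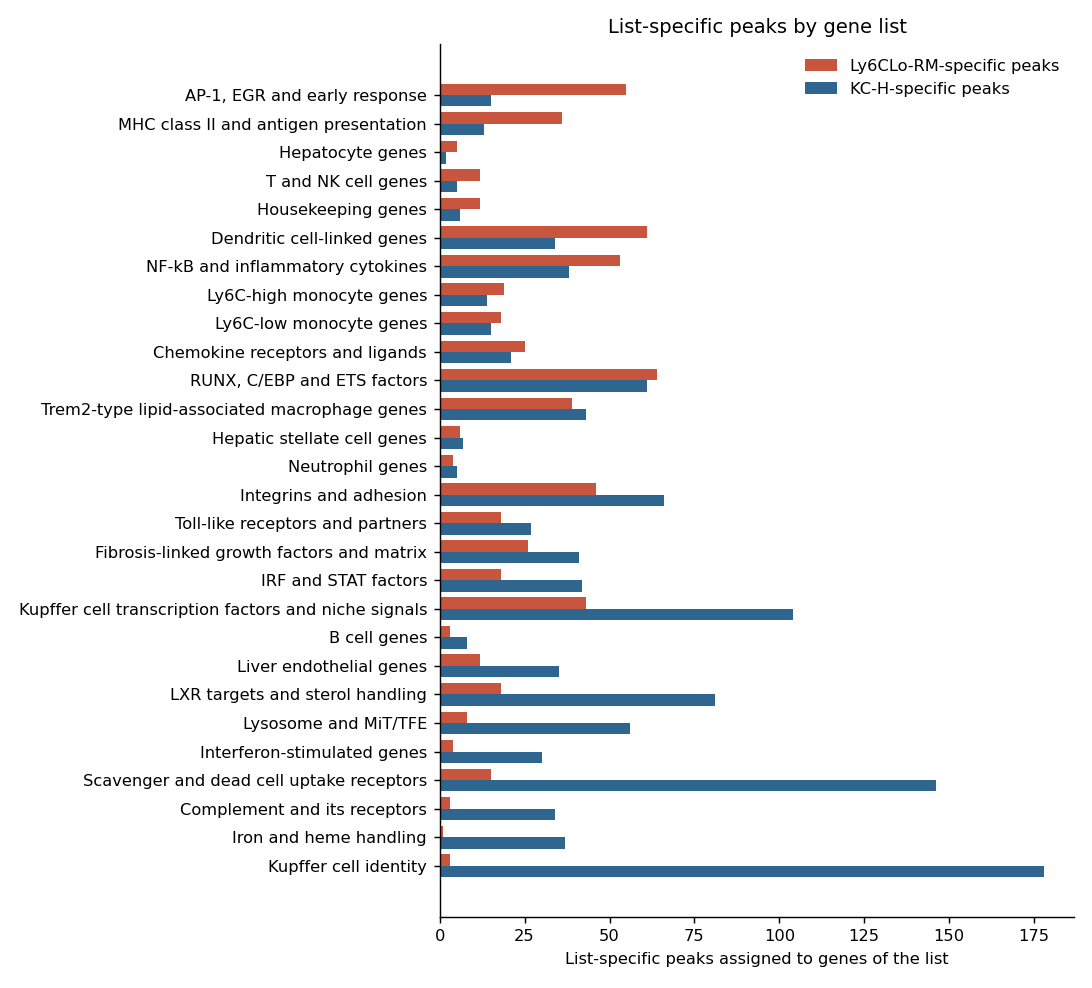
Number of Ly6CLo-RM-specific and KC-H-specific peaks assigned to the genes of each of 28 gene lists, for the lists as deposited. Kupffer cell identity (3 and 178) and scavenger and uptake receptors (15 and 146) lie on the KC-H side, and AP-1 and early response genes (55 and 15) and MHC class II genes (36 and 13) on the Ly6CLo-RM side. Over all genes 42.0% of the specific peaks were of Ly6CLo-RM.

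Among the regulators of Kupffer cells, Rxra, which encodes the nuclear receptor partner of LXR (chromosome 2, 27676445 to 27763319), had 2 peaks in Ly6CLo-RM and 47 in KC-H. Of these 0 and 40 were list-specific, more than at any other gene. KC-N had 15 peaks there, KN-RM 10, Ly6CHi-RM 7 and blood monocytes 14, so the density in KC-H was not matched in any NASH list. Nr1h3 itself had 2 peaks in Ly6CLo-RM and 5 in KC-H, of which 0 and 1 were specific. Spic, a factor of iron-recycling macrophages, had the same counts as Nr1h3. Id3, a factor needed for Kupffer cells in mice, had 0 Ly6CLo-RM-specific and 7 KC-H-specific peaks, and Tfec, of the MiT/TFE family of lysosome regulators, 0 and 8. Rbpj, the nuclear partner of Notch, went the other way with 9 and 0. Over the 24 factors and niche signals there were 43 and 104, with 8 genes more on the Ly6CLo-RM side and 13 on the KC-H side. At equal length there were 46 and 73, with 9 genes on each side. In the best-scored 50% of each list 45.5% of the specific peaks were of Ly6CLo-RM, above the 39.4% of all genes. Without the 40 peaks of Rxra the count of KC-H would be 64.

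LXR targets and sterol genes had 18 Ly6CLo-RM-specific and 81 KC-H-specific peaks, with 4 of 18 genes more on the Ly6CLo-RM side and 12 on the KC-H side. Abca1, the cholesterol exporter, had 18 peaks in Ly6CLo-RM and 42 in KC-H, with 1 and 20 specific, and KC-N held 17 of the 20. Mertk, a receptor for dying cells, had 3 and 29 peaks, with 0 and 24 specific. Scd1, a desaturase of fatty acids, had 0 and 11 specific peaks, and Mylip, which degrades the LDL receptor, 1 and 6. Arl4c, another LXR target, had 5 and 0. Abca1, Mertk and Scd1 gave 55 of the 81, so the count rests largely on these genes.

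Uptake, complement and iron genes lay on the KC-H side. Scavenger and uptake receptors had 15 Ly6CLo-RM-specific and 146 KC-H-specific peaks, with 3 of 19 genes more on the Ly6CLo-RM side and 15 on the KC-H side. Marco, Timd4 and Mertk are among them, as are Stab2 with 0 and 18 and the lysosomal receptor gene Scarb2 with 0 and 11. Complement genes had 3 and 34, and the neighbours C1qa, C1qb and C1qc, which encode the chains of C1q, had 0 Ly6CLo-RM-specific peaks and 5, 3 and 6 KC-H-specific peaks. Iron and heme genes had 1 and 37. Slc40a1, the iron exporter ferroportin, had 0 and 15 and Hmox1, which degrades heme, 0 and 5. Lysosome genes had 8 and 56, with the protease genes Ctsb and Ctsd at 0 and 7 each. These lists share members, so their counts are not independent of each other.

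MHC class II and antigen presentation genes had 36 Ly6CLo-RM-specific and 13 KC-H-specific peaks, with 8 of 15 genes more on the Ly6CLo-RM side and 2 on the KC-H side. Ly6CLo-RM gave 73.5% (59.7% to 83.8%), beside 42.0% over all genes and 66.7% (43.8% to 83.7%) of housekeeping genes. H2-Eb1, a class II β chain (chromosome 17, 34305867 to 34316674), had 20 peaks in Ly6CLo-RM and 10 in KC-H, with 7 and 0 specific. H2-Ab1 had 15 and 7 peaks, with 5 and 1 specific, and H2-Aa 17 and 9, with 3 and 0. Cd74, the invariant chain, had 19 peaks in each and 0 specific ones, and Ciita, the master regulator of the class, 9 in each with 2 specific on either side. Of the 36 Ly6CLo-RM-specific regions 14 were found in Ly6CHi-RM (38.9%), where the share of all Ly6CLo-RM-specific peaks was 69.9%. None of the 5 of H2-Ab1 was found in any other list. Genes of the H2 family are alike in sequence, so reads may be shared between them.

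Dendritic cell-linked genes had 61 Ly6CLo-RM-specific and 34 KC-H-specific peaks, with 9 of 15 genes more on the Ly6CLo-RM side and 3 on the KC-H side. Ly6CLo-RM gave 64.2% (54.2% to 73.1%), above the 42.0% over all genes but near the 66.7% (43.8% to 83.7%) of housekeeping genes. Bcl11a (chromosome 11, 24076564 to 24173558) had 22 peaks in Ly6CLo-RM and 3 in KC-H, with 20 and 1 specific. Flt3, a growth factor receptor of dendritic cells and their precursors (chromosome 5, 147330741 to 147400489), had 11 and 1 peaks, with 10 and 0 specific. Of the Flt3 regions 8 were also in Ly6CHi-RM and 8 in blood monocytes. Cbfa2t3, a corepressor, had 9 and 0 specific peaks, and Zbtb46, a factor of classical dendritic cells, 5 and 2. Irf8 lay on the other side, with 12 and 34 peaks of which 2 and 20 were specific. Clec9a, with 0 and 2 specific peaks, and Batf3, with 2 and 3, also lay there and were chosen after their values were seen. Over the list there were 118 peaks in Ly6CLo-RM and 101 in KC-H. Of the 15 genes, 2 had no peak in Ly6CLo-RM and 1 none in KC-H. The part of dendritic cells in the sort was not tested.

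Stress and early response genes had 55 Ly6CLo-RM-specific and 15 KC-H-specific peaks, with 12 of 20 genes more on the Ly6CLo-RM side and 5 on the KC-H side. Ly6CLo-RM gave 78.6% (67.6% to 86.6%), beside 42.0% over all genes and 66.7% (43.8% to 83.7%) of housekeeping genes. Atf3, a stress-induced factor of the ATF family (chromosome 1, 191170296 to 191183333), had 37 peaks in Ly6CLo-RM and 17 in KC-H, with 17 and 0 specific. Of the 17, 14 were in Ly6CHi-RM, 4 in blood monocytes, 1 in KC-N and 1 in KN-RM. Klf6 had 12 and 4, Egr2 6 and 0 and Fos 6 and 2. The AP-1 subunit genes Fosb and Junb, chosen after their values were seen, had 0 specific peaks on either side.

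Among lineage factors, Runx3 (chromosome 4, 135120645 to 135177990) had 26 peaks in Ly6CLo-RM and 4 in KC-H, with 21 and 0 specific, and Runx2 had 22 and 9, with 11 and 0 specific. Of the 21 Runx3 regions, 17 were in Ly6CHi-RM, 18 in blood monocytes, 7 in KC-N and 6 in KN-RM. Etv6, an ETS repressor that is not a member of the RUNX, C/EBP and ETS list, had 21 and 8 specific peaks. Cebpb had 1 and 8, and the ETS genes Ets2 1 and 9 and Etv1 1 and 8. Over the RUNX, C/EBP and ETS list the counts were 64 and 61, with members on both sides, and at equal length 72 and 43.

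Genes of the Trem2-type macrophage state, a lipid-handling state seen in fatty liver, had 39 Ly6CLo-RM-specific and 43 KC-H-specific peaks. At equal length there were 48 and 37. Ly6CLo-RM then gave 56.5% (45.9% to 66.5%), beside 53.9% over all genes, so the turn is near that of all genes. Atf3, also in this list, gave 17 of the 39. Trem2 had 3 peaks in each list, Gpnmb 2 in each, Cd9 19 and 13 with 7 and 5 specific, and Spp1 3 and 0, all 3 specific. The lipase gene Lpl had 0 and 4 specific peaks. The Ly6C-high monocyte list had 19 and 14 specific peaks and the Ly6C-low list 18 and 15, and at equal length they had 23 and 10 and 22 and 12. Ly6CLo-RM gave 57.6% and 54.5% of those as deposited, beside 42.0% over all genes, a share that lies inside the counting interval of each. F13a1, a coagulation factor gene of monocytes, had 6 peaks in Ly6CLo-RM and 0 in KC-H. Spn, which encodes CD43, had 5 and 0 specific peaks.

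The genes with the most list-specific peaks were led by Foxp1 in Ly6CLo-RM and Rxra in KC-H. Foxp1, a forkhead repressor (chromosome 6, 98925342 to 99522746), had 50 peaks in Ly6CLo-RM and 20 in KC-H, with 31 and 2 specific. Bach2, a repressor, had 23 and 10 specific peaks, Sgms1, a sphingomyelin synthase, 23 and 1, Pde4d, a cAMP phosphodiesterase, 21 and 3, and Gfod1 20 and 0. On the KC-H side Ptprm, a receptor phosphatase, had 2 and 39 peaks with 0 and 36 specific. Sema6d, a semaphorin, had 2 and 34 specific peaks, Wdfy3, a scaffold of autophagy, 1 and 33, Itga9, an integrin, 1 and 31, and Itsn1, a scaffold of endocytosis, 0 and 29. Long genes can hold more peaks, and these counts are not set against gene length.

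**Figure D4:**
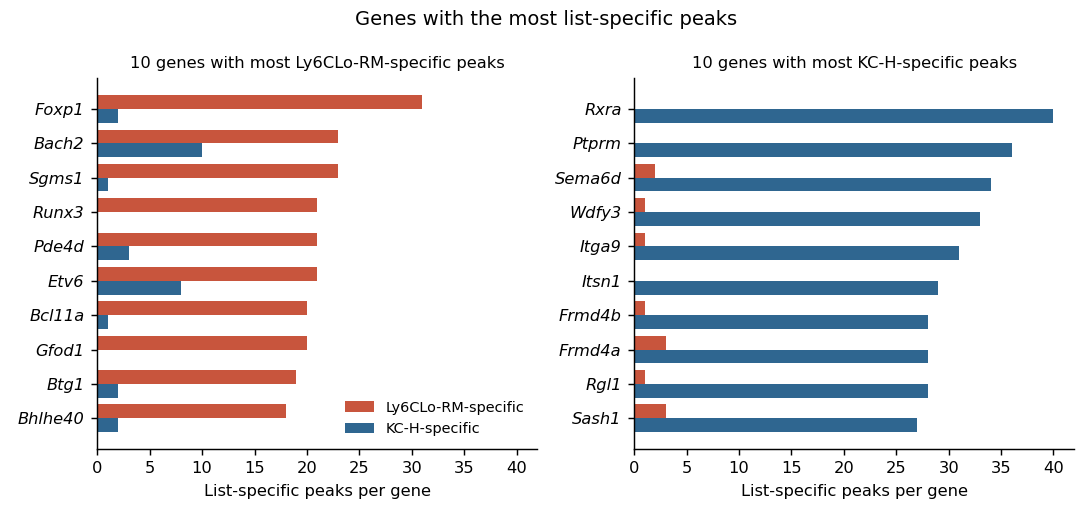
List-specific peaks per gene for the 10 genes with the most Ly6CLo-RM-specific peaks (left) and the 10 with the most KC-H-specific peaks (right), with both directions shown. Foxp1 leads with 31 of Ly6CLo-RM and 2 of KC-H, and Rxra with 0 and 40.

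Specific peaks also formed runs. With neighbours joined within 12.5 kb, 167 clusters of 5 or more peaks held 8.75% of Ly6CLo-RM-specific peaks and 375 held 15.2% of KC-H-specific peaks. The largest of Ly6CLo-RM held 18 peaks around Btg1, an antiproliferative gene, over 42.3 kb, with 7 KC-H peaks in the same span. The next held 16 at Bhlhe40 and 15 at Atf3 and its neighbour Fam71a, of which 11 were assigned to Atf3 and 4 to Fam71a. Of these 15, 13 were in Ly6CHi-RM and 0 in blood monocytes. Of KC-H, the largest held 28 peaks over 68.7 kb at Mroh2a, Hjurp and Ugt1a genes, with 3 of the 28 in KC-N, and the Ugt1a genes share exons. Clusters of 21 peaks at Itga9, Rxra and Sdc3 and of 20 at Mertk followed, and the spans at Rxra and Mertk held 0 Ly6CLo-RM peaks.

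**Figure D5:**
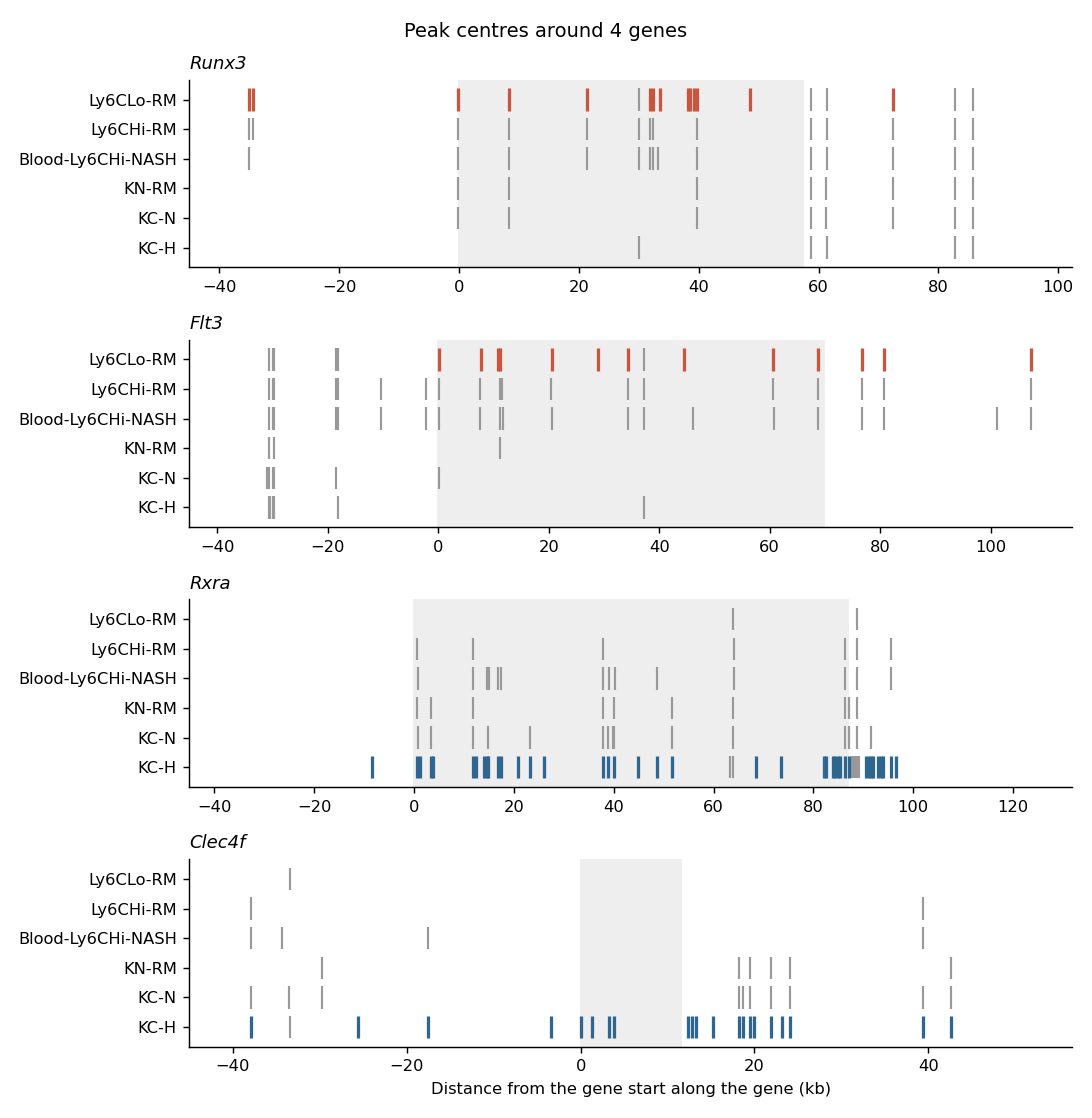
Peak centres of the 6 lists around Runx3, Flt3, Rxra and Clec4f (x axis: distance from the gene start along the gene in kb; grey: the gene; list-specific peaks in colour), with 40 kb on each side. Within these spans Runx3 has 19 centres in Ly6CLo-RM and 5 in KC-H, Flt3 19 and 6, Rxra 2 and 47, and Clec4f 1 and 22.

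Motifs were counted in promoter windows that held a list-specific peak centre, 358 for Ly6CLo-RM and 586 for KC-H, beside all 32851 windows. The RUNX motif TGTGGTT was in 12.3% of the Ly6CLo-RM windows (9.28% to 16.1%), 6.14% of the KC-H windows (4.47% to 8.39%) and 5.27% of all windows. It was in 3.47% of windows with a shared peak of Ly6CLo-RM. The PU.1 core GAGGAAGT was in 8.66% of Ly6CLo-RM windows, 3.07% of KC-H windows and 3.20% of all. The interferon-stimulated response element was in 1.96% and 5.29%, and in 3.44% of all. The nuclear receptor element GGGTCA was in 9.22% (6.64% to 12.7%) and 15.5% (12.8% to 18.7%), and in 13.7% of all. AP-1 TGANTCA was in 10.3% (7.59% to 13.9%) and 7.17% (5.35% to 9.55%), and in 7.81% of all, which both intervals hold. The SMAD motif CAGACA, printed in capitals in the Timd4 window, was in 22.6% of Ly6CLo-RM windows, 16.4% of KC-H windows and 21.0% of all. NF-kB GGGANTTCC was in 4.19% and 1.88%, and in 1.68% of all. The remaining motifs, CRE, C/EBP and E-box, were in at most 8.66% of Ly6CLo-RM windows, 8.53% of KC-H windows and 7.15% of all. Of windows with a shared peak of Ly6CLo-RM, 4.62% held AP-1, 14.5% SMAD, 3.80% PU.1, 2.73% NF-kB and 13.9% GGGTCA. These windows held CRE in 4.00% and the E-box in 11.6% of cases, where CRE was in 1.12% of Ly6CLo-RM-specific and 1.02% of KC-H-specific windows. Windows with a shared peak of KC-H held AP-1 in 4.52%, SMAD in 14.4%, the interferon-stimulated response element in 2.98% and GGGTCA in 14.0% of cases. Windows of 1 gene can overlap, and motifs can overlap each other. A match is a description of the letters and shows no binding.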

How the data were processed

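Chromatin accessibility was measured by ATAC-seq. Bowtie2, HOMER and DESeq2 are listed in the submitters' processing notes, with no versions or roles, beside the builds mm10 and GRCm38. Depth, read filters, blacklists and any transposase shift were not given in the sources used here, and repeated sequence was not removed. The authors deposited 1 list for each group, with no header; its name refers to the irreproducible discovery rate, per the labels. Each row holds a position, a signal (the authors' tag count of the peak in a scaling not stated) and a whole-number score that the authors' pipeline gave. Both were used only within a list. Nearly all peaks were 200 bp wide, except 2 of Ly6CLo-RM and 4 of KC-H.

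Distances were taken between peak centres. Equal-length lists were cut by score, ties by tag count. Gene ends were those of 21887 protein-coding genes in RefSeq (GRCm38.p6). Starts were those of a RefSeq promoter table for 17492 of them, and both gene ends for the others. Motifs in distal peaks were left out because no genome sequence was used here. Of 418 symbols in 28 gene lists, 3 were not in the gene table. The members and lists were chosen with earlier results of these data known. Genes are named by a rule: the 10 with the most list-specific peaks per direction, the 5 best-scored peaks and 5 largest clusters, up to 5 members of each list with the largest difference, and fixed markers. The text gives a part of these 154 genes, and 1 gene is not reported here. The count of genes with a start peak was added after the data were examined. Functions were tested on simulated lists. Alternatives were other distances, overlap, score filters, gene windows, assignment to gene ends, autosomes and X, rank by tag count and joining distances. Scripts ran in Python 3.11.15 with matplotlib 3.10.9, scipy 1.17.1, pandas 2.3.3 and numpy 2.4.6. Intervals are 95% Wilson intervals.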

Additional observations from a re-analysis of the deposited data

How the results depend on the processing

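No paired analysis was possible because each group has 1 list made from both libraries, and for the same reason no replicate could be left out. With no centre within 5000 bp the list-specific counts were 8225 for Ly6CLo-RM and 11093 for KC-H, and in the best-scored 50% of each list 2717 and 4225. Under the other alternatives both counts were within 1.5 times those reported.

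The share of Ly6CLo-RM-specific peaks near a start was 5.60% at equal length, 7.20% with 500 bp, 5.56% with 5000 bp, 11.4% by overlap, 5.52% in the best 50%, and 3.69% or 11.7% with starts within 500 or 2500 bp. For KC-H it was 12.7% with 500 bp, 18.0% by overlap, 5.73% in the best 50%, and 5.02% or 14.6% with those start distances. The share of Ly6CLo-RM-specific peaks found in Ly6CHi-RM was 73.0% at equal length, 72.2% with 500 bp, 74.9% by overlap and 87.0% in the best 50%. The share of KC-H-specific peaks found in KC-N was 57.7%, 56.3%, 61.9% and 82.8% under those 4, and 47.9% with 5000 bp.

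The list of Kupffer cell factors and niche signals turned in the best-scored 50%, where 45.5% of its specific peaks were of Ly6CLo-RM beside 39.4% over all genes. As Ly6CLo-RM minus KC-H specific peaks, Actb turned to -3 with 500 bp and -6 by overlap, Klf6 to -1 with 2000 and with 5000 bp, Irak3 to -1 with 5000 bp, Ccr2 to 1 with a 20 kb window and Cebpb to 1 in the best 50%. For these the cause was not tested. Gene list shares otherwise gave 253 values inside the counting interval of those reported and 35 outside it, and named genes 1196 differences within 1.5 times and 337 beyond, some at 0 in either setting, with no further change of sign. The Kupffer identity genes with a start peak in KC-H alone numbered 12 or 13. A region absent from a list may lie under its detection limit, which the unknown depth sets.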

Other observations

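Growth factor, adhesion and chemokine genes held list-specific regions of both sides. Ly6CLo-RM gave 38.8% of the specific peaks of fibrosis-linked genes, 41.1% of integrin and adhesion genes and 54.35% of chemokine genes. The 42.0% over all genes lies inside the counting interval of each, so none of these lists is set apart by its counts. Among fibrosis-linked genes, with 26 Ly6CLo-RM-specific and 41 KC-H-specific peaks, Vegfa had 6 peaks in Ly6CLo-RM and 0 in KC-H, and Igf1, an insulin-like growth factor, 4 and 18, of which 0 and 13 were specific. Pdgfc, a platelet-derived growth factor, had 0 and 11 specific peaks, and Osm, the oncostatin M gene, 7 and 0. Integrin and adhesion genes had 46 and 66, but 12 of 18 genes had more on the Ly6CLo-RM side and 5 on the KC-H side, and at equal length the peaks were 52 and 50. Over all genes with a peak, 25.1% had more on the Ly6CLo-RM side and 33.0% on the KC-H side. Itgb3, an integrin β chain, had 6 peaks in Ly6CLo-RM and 0 in KC-H, Selplg, the ligand of P-selectin, 7 and 0 specific peaks, and Itgb5 0 and 11. Chemokine genes had 25 and 21: Cxcr4, the receptor for CXCL12, had 8 and 0, and Cxcl13, a B cell attractant, 0 and 6.

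Inflammatory genes were divided too. Over all genes Ly6CLo-RM gave 42.0% of the specific peaks. It gave 58.2% (48.0% to 67.8%) of those of NF-kB and cytokine genes and 11.8% (4.67% to 26.6%) of those of interferon-stimulated genes. For Toll-like receptor genes it gave 40.0%, and for IRF and STAT genes 30.0% (19.9% to 42.5%), and both of their intervals hold the 42.0%. NF-kB and cytokine genes had 53 Ly6CLo-RM-specific and 38 KC-H-specific peaks, with Tnfaip3, a feedback inhibitor, at 13 and 3, Nfkb1 at 9 and 1, and Il1b at 0 and 6. Toll-like receptor genes had 18 and 27, with Tlr5 at 4 and 0 and Tlr4, the lipopolysaccharide receptor, at 0 and 9. IRF and STAT genes had 18 and 42, of which Irf8 gave 2 and 20, Irf2 0 and 11 and Stat4 4 and 0. At equal length they had 20 and 25, and Ly6CLo-RM gave 44.4% (30.9% to 58.8%), beside 53.9% over all genes. Interferon-stimulated genes had 4 and 30, with 1 of 18 genes more on the Ly6CLo-RM side and 12 on the KC-H side, among them Oasl1 at 0 and 7 and Ifit3 at 0 and 3. Over all genes with a peak, 25.1% had more on the former side and 33.0% on the latter.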
